A study of Homo sapiens with 6 samples.

Results

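The TNF superfamily ligands, their receptors and the caspases were followed in SW620 cells that received control siRNA or siRNA against OSBPL3. Members were taken by symbol from the count table: symbols that begin with TNFSF or TNFRSF, CASP followed only by digits, and TNF, FASLG, LTA and LTB. Antisense and divergent-transcript symbols and CASP8AP2 were left out by that rule. It found 42 of the 20729 genes of the table: 12 ligands, 20 receptors and 10 caspases. All 42 were protein-coding genes in the RefSeq annotation of GRCh38.p14. The rule reads symbols only, but it was chosen with earlier results of these data known.

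SW620 is an established human colorectal cancer line, and OSBPL3 encodes an oxysterol-binding-protein-related lipid transfer protein. The 6 RNA-seq libraries were 3 of SW620 cells given control siRNA (siNC) and 3 of SW620 cells given OSBPL3 siRNA (siOSBPL3). No other allele or agent is named, and the siRNA dose and the time of exposure are not given in the sources used here. The labels do not say whether replicates were separate cultures, so the p-values reflect only how these libraries varied, which may be technical variation.

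Ligands of the TNF superfamily are mostly trimeric membrane proteins, some of which are shed, and they act on receptors of the TNF receptor superfamily. Receptors with a cytoplasmic death domain can assemble complexes that activate the initiator caspases CASP8 and CASP10, which cleave the executioner caspases, while receptors without one recruit TRAF proteins and signal mainly to NF-kB and MAP kinases. Decoy receptors bind ligand without passing on a death signal. In intestinal epithelium these genes are known for their part in cell turnover, inflammation and the response of tumour cells to immune attack.

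OSBPL3, the targeted gene, was measured at 179, 174 and 175 CPM (counts scaled to 1000000 per library) in siNC replicates 1 to 3 and at 40.2, 12.2 and 15.1 CPM in the siOSBPL3 libraries. The log2 fold change was -2.97 ± 0.48 (standard error, SE) with an adjusted p of 0.0016, and it was -3.68 without siOSBPL3 replicate 1, the library with the most OSBPL3 left, and -2.22 with GC content and length of the genes corrected for. Library totals ran from 30040020 to 39701340 counts. In the edgeR test over 15506 genes, 80.2% of genes passed an adjusted p of 0.05, 40.4% higher and 39.8% lower in siOSBPL3, and the median log2 fold change was 0.00. Of 13 colorectal epithelial markers all had counts in siOSBPL3 and 12 in siNC (CDX1 was at 0 in siNC). Their summed levels were 7111 to 7189 CPM in siNC and 4922 to 6057 CPM in siOSBPL3. The largest parts of these sums were KRT8 (means of 2996 and 2382 CPM) and KRT18 (2183 and 1131 CPM). Of the 11 markers tested 72.7% were called, beside 80.2% of all genes. EPCAM (516 to 619 CPM), KRT19 (718 to 844 CPM), CDX2, CDH17 and LGALS4 were called higher. KRT8, KRT18 and VIL1 were called lower, and 3 did not pass. KRT20, CEACAM5 and GPA33, markers of colorectal epithelium, each had a mean below 0.5 CPM in both groups. The summed level of 5 fibroblast markers was 69.9 to 74.3 CPM in siNC and 3.18 to 5.95 CPM in siOSBPL3. Most of the siNC sum was the single gene LUM, with a mean of 60.3 CPM in siNC and 0 in siOSBPL3. COL1A1 went from 10.7 to 4.47 CPM and PDGFRB from 1.17 to 0.475 CPM. DCN averaged 0.0518 and 0.00911 CPM, and COL3A1 was at 0 in siNC. The summed level of 6 leukocyte markers was 3.10 to 3.38 CPM in siNC and 5.18 to 7.53 CPM in siOSBPL3. For 2 endothelial markers it was 1.39 to 2.25 and 0.219 to 0.803 CPM. CDX2, a colorectal transcription factor, went from 1.15 to 63.5 CPM and VIL1, a brush border protein, from 482 to 62.5 CPM. Whether both groups held the same cells was not tested, and in bulk RNA fewer cells of a type and less RNA per cell cannot be told apart, so each difference below is one between these libraries.

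Of the 42 members, 37 had enough counts to be tested. Of these, 22 rose, 8 fell and 7 did not pass, so that 81.1% were called beside 80.2% of all genes; this share is near the background. Changes of at least 2-fold were called for 18 members upward and 4 downward, 59.5% of those tested beside 48.9% of all genes (24.8% upward and 24.1% downward). The median log2 fold change of the tested members was 1.23, beside 0.00 over all genes, and their median absolute value was 1.42, beside 1.0. In 31 members the 3 libraries of one group lay entirely above or below the 3 of the other, and this held for 83.0% of all genes.

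**Figure D1:**
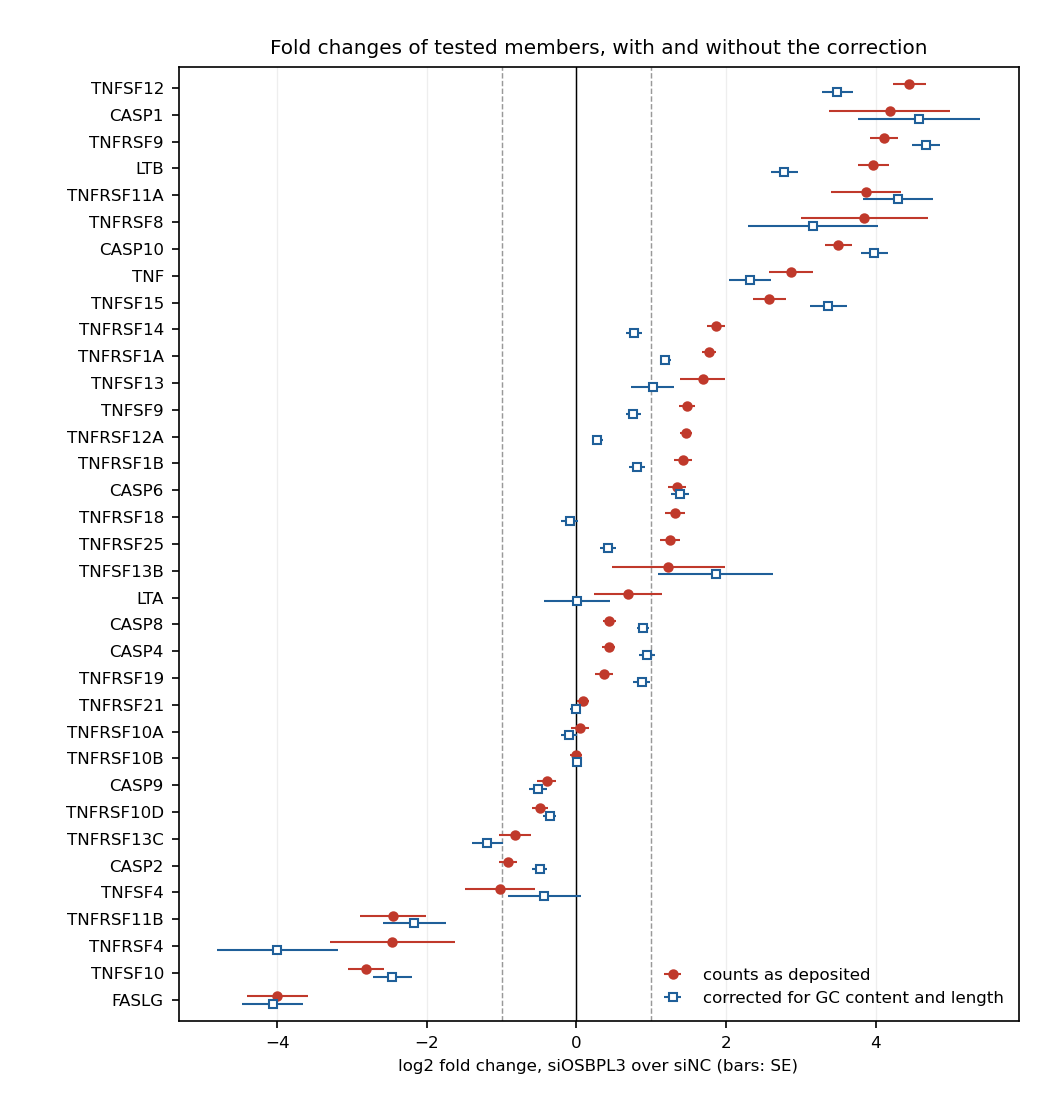
Log2 fold change (siOSBPL3 over siNC, x axis) with its SE for 35 of the 37 tested members, ordered by size; circles are from the counts as deposited, open squares are after a correction for GC content and gene length, and dashed lines mark 2-fold. TNFSF12 (4.45) is at the top and FASLG (-4.00) at the bottom, and the square of TNFRSF18 lies at -0.09.

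Promoter stretches are shown for 5 members out of those that changed by at least 2-fold and carry at least 1 of 2 letter patterns near the start, to let the rises and falls be read beside the letters. The window searched ran from 250 bases before to 50 bases after a RefSeq start. The patterns were GAAANNGAA, the core of the interferon-stimulated response element, and GGNNTTTCC, 9 bases of an NF-kB site, searched on both strands. Sequences are from RefSeq, GRCh38.p14, written 5′ to 3′ on the gene's strand, 60 bases each, with the pattern in capitals.
TNFSF10, chr3:172523451-172523510, minus strand, interferon pattern on the opposite strand: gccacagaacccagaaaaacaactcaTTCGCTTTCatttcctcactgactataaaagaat
TNFRSF1B, chr1:12166931-12166990, plus strand, interferon pattern on the opposite strand: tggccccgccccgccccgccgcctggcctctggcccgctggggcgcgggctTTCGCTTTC
LTB, chr6:31582478-31582537, minus strand, NF-kB pattern on the opposite strand: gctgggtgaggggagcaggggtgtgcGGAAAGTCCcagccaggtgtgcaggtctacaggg
TNFRSF9, chr1:7940879-7940938, minus strand, NF-kB pattern: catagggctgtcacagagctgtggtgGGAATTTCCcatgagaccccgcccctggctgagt
FASLG, chr1:172659013-172659072, plus strand, both patterns: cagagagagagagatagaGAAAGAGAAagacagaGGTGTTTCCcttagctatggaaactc

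The promoter table held 28 of the 42 members. The interferon pattern was present in 7 of them (CASP8, FASLG, TNFRSF1B, TNFSF10, TNFSF13B, TNFSF14 and TNFSF9), 25.0%, beside 9.07% of the 15261 genes of the count table that the promoter table held. The NF-kB pattern was present in 4 (FASLG, LTB, TNFRSF9 and TNFSF13), 14.3%, beside 8.48%. Counted per window, the shares were 8.11% and 6.26% of 35116 windows. Of the 10 members with either pattern, LTB, TNFRSF9, TNFRSF1B, CASP8, TNFSF9 and TNFSF13 were called higher and FASLG and TNFSF10 lower in siOSBPL3, TNFSF13B did not pass and TNFSF14 was not tested. A match is a description of the letters only, and no binding was measured.

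Among the ligands, 6 rose, 2 fell and 3 did not pass (median log2 fold change 1.48 over the 11 tested). The rises were TNFSF12, LTB, TNF, TNFSF15, TNFSF13 and TNFSF9, and the falls were FASLG and TNFSF10. Each was at least 2-fold, and in all 8 the libraries of the groups did not overlap. Of the 11 tested ligands 72.7% were called, beside 80.2% of all genes. The groups did not overlap in 9 of the 11, beside 83.0% of all genes. These shares of all genes also stand beside the counts by role below.

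TNFSF12 encodes TWEAK, the ligand of TNFRSF12A. It had 0.639, 0.422 and 0.573 CPM in siNC and 11.4, 12.2 and 12.3 CPM in siOSBPL3. All 3 siOSBPL3 libraries stood far above the controls and close to each other; the log2 fold change was 4.45 ± 0.22 (adjusted p 2.3e-09). LTB, the membrane anchor of the lymphotoxin heterotrimer, had 1.13, 1.42 and 1.62 CPM in siNC and 26.6, 17.7 and 21.0 CPM in siOSBPL3, a log2 fold change of 3.97 ± 0.21 (adjusted p 4.0e-09). Replicate 1 was highest among the siOSBPL3 libraries, and none came near the controls. With GC content and length of the genes corrected for, the values were 3.49 for TNFSF12 and 2.78 for LTB.

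TNF itself, the founding cytokine, stayed at low levels. It had 0.426, 0.602 and 0.607 CPM in siNC and 4.01, 4.24 and 3.74 CPM in siOSBPL3, from 52 and 448 counts in all. The 3 libraries of each group lay close together, and TNF rose by 2.87 ± 0.29 on the log2 scale (adjusted p 1.9e-06). TNFSF15, which encodes TL1A, the ligand of TNFRSF25, had 7.49, 6.84 and 6.07 CPM in siNC and 58.1, 31.6 and 32.4 CPM in siOSBPL3. Its siOSBPL3 replicate 1 was the highest, and all 3 stood above the controls; the log2 fold change was 2.58 ± 0.22 (adjusted p 5.2e-07) and 3.37 after the GC and length correction. TNFSF9, the ligand of the costimulatory receptor TNFRSF9, had 11.8, 10.4 and 12.2 CPM in siNC and 34.1, 29.3 and 32.6 CPM in siOSBPL3. It rose by 1.48 ± 0.11 (adjusted p 1.3e-07), and by 0.76 with the correction. TNFSF13, which encodes APRIL, a ligand for B cell receptors of the family, was lower in abundance, with 0.943, 1.11 and 0.910 CPM in siNC and 4.10, 2.71 and 2.81 CPM in siOSBPL3, a log2 fold change of 1.69 ± 0.30 (adjusted p 2.4e-04; 1.02 with the correction).

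The 2 ligands that fell are the best known inducers of death by receptor. FASLG, the ligand of FAS, had 7.27, 6.96 and 6.44 CPM in siNC and 0.111, 0.711 and 0.455 CPM in siOSBPL3. All 3 siOSBPL3 libraries were below 1 CPM, with 48 counts against 661; the log2 fold change was -4.00 ± 0.41 (adjusted p 1.7e-06). TNFSF10, which encodes TRAIL, had 7.82, 9.58 and 10.8 CPM in siNC and 1.13, 1.78 and 1.09 CPM in siOSBPL3, a log2 fold change of -2.81 ± 0.24 (adjusted p 3.9e-07). The lowest control library was more than 4 times the highest siOSBPL3 library.

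LTA, lymphotoxin alpha, had 0.371 to 0.791 CPM in siNC and 0.692 to 1.26 CPM in siOSBPL3 and overlapped between groups (0.69 ± 0.45, adjusted p 0.17; 0.01 with the GC and length correction). TNFSF13B, which encodes BAFF, a survival factor of B cells, had 18 counts in siNC, none of them in replicate 1, and 50 in siOSBPL3 (1.23 ± 0.76, adjusted p 0.15). Its value was 2.40 (adjusted p 0.045) without siNC replicate 2 and 0.64 without siNC replicate 1, and it was called with limma-voom (2.13, adjusted p 0.048) and after the GC and length correction (1.86, adjusted p 0.046). TNFSF4, the OX40 ligand, had 1.46, 1.57 and 1.55 CPM in siNC and 1.38, 0.492 and 0.379 CPM in siOSBPL3. Replicate 1 of siOSBPL3 lay beside the controls, and the log2 fold change of -1.02 ± 0.47 missed the threshold (adjusted p 0.065), while without that library it was -1.80 (adjusted p 0.0010); limma-voom also called it (-1.26, adjusted p 0.020). It was -0.79 without siOSBPL3 replicate 2 and -0.69 without replicate 3 (adjusted p 0.20 for both), and -0.43 (adjusted p 0.44) after correction for GC content and length. The gene span of TNFSF4, introns included, overlaps LOC100506023 (1.55 CPM in siNC and 0.275 CPM in siOSBPL3) and PRDX6-AS1 (2.41 and 0.365 CPM). How many reads these genes share is not known without the strand setting. TNFSF14, which encodes LIGHT, had 20 and 38 counts and was not tested.

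**Figure D2:**
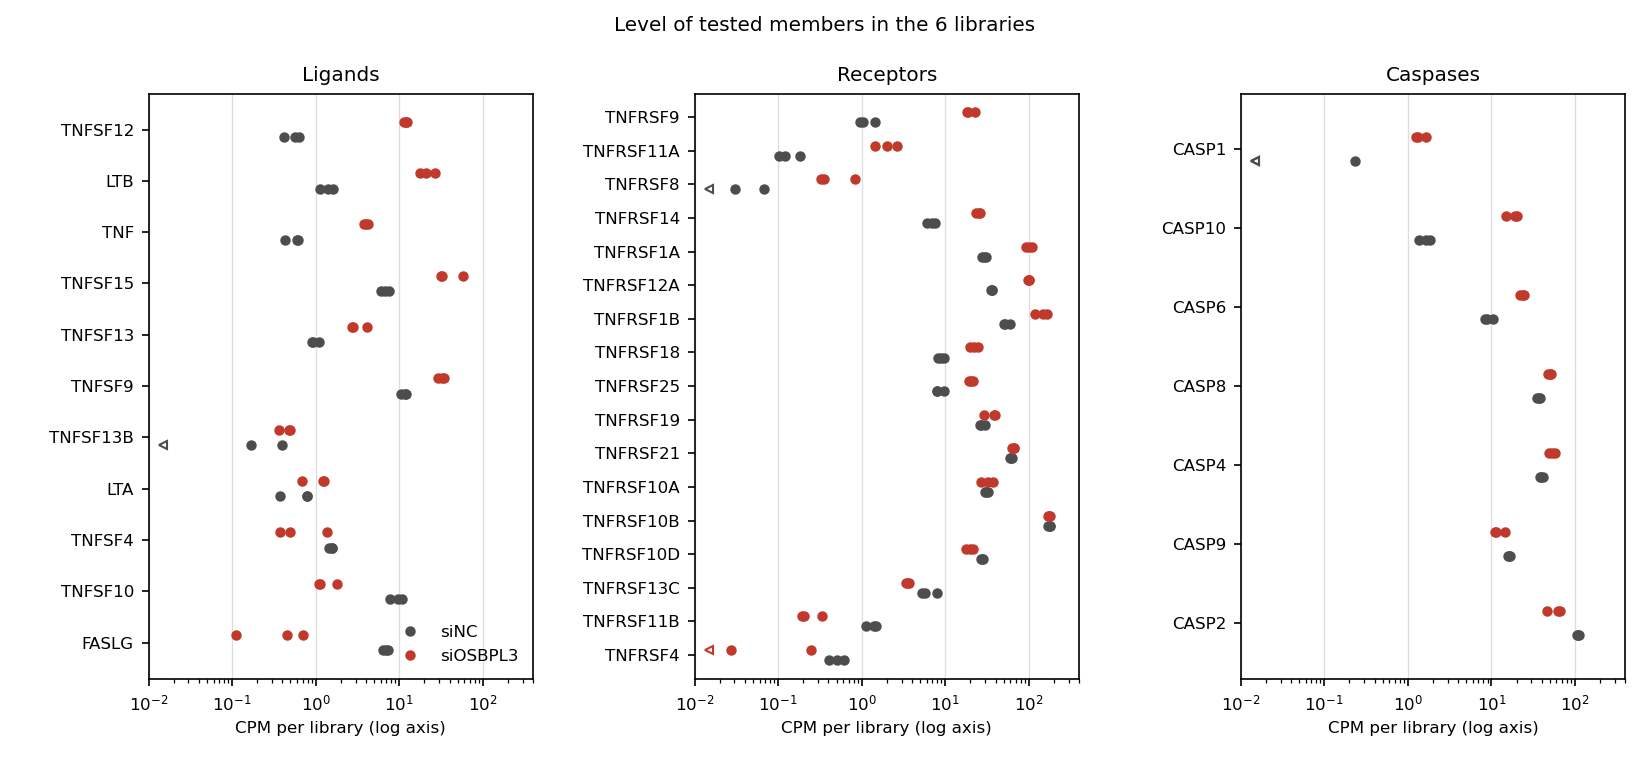
CPM in each of the 6 libraries (log axis) for 35 of the 37 tested members, in panels of ligands, receptors and caspases; each point is a library, and open triangles at the left edge mark libraries with 0 counts. TNFSF12, TNFRSF9 and CASP10 lie near or below 2 CPM in siNC and above 10 CPM in siOSBPL3, and TNFRSF10B lies between 168 and 180 CPM in all 6 libraries.

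Of the 5 receptors with a death domain, TNFRSF1A and TNFRSF25 rose and TNFRSF10A, TNFRSF10B and TNFRSF21 did not pass (median 0.09). TNFRSF1A, the main receptor of soluble TNF, had 27.3, 31.0 and 29.4 CPM in siNC and 99.3, 108 and 91.3 CPM in siOSBPL3. The lowest siOSBPL3 library was nearly 3 times the highest control, and the log2 fold change was 1.77 ± 0.09 (adjusted p 4.7e-09). TNFRSF25, the receptor of TNFSF15, had 8.06, 7.86 and 9.67 CPM in siNC and 21.7, 20.1 and 19.1 CPM in siOSBPL3, again without overlap (1.25 ± 0.13, adjusted p 1.9e-06). After the GC and length correction its value was 0.42. TNFRSF25 shares 585 bases with ESPN, which had 20.3 CPM in siNC and 20.2 CPM in siOSBPL3.

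The TRAIL receptors TNFRSF10A and TNFRSF10B were among the members with the smallest differences. TNFRSF10B, also called DR5, had 171, 177 and 177 CPM in siNC and 180, 173 and 168 CPM in siOSBPL3, overlapping throughout (-0.01 ± 0.08, adjusted p 0.89). Per kilobase of exon it was the most abundant member in siNC, at 42.3 CPM per kb, with 41.9 CPM per kb in siOSBPL3. TNFRSF10A, also called DR4, had 32.3, 30.1 and 30.7 CPM in siNC and 32.4, 37.3 and 26.6 CPM in siOSBPL3, with siOSBPL3 libraries both above and below the controls (0.05 ± 0.12, adjusted p 0.71). TNFRSF21, or DR6, had 59.9, 61.9 and 62.7 CPM in siNC and 65.6, 63.7 and 66.4 CPM in siOSBPL3. Its groups did not overlap, but the log2 fold change was 0.09 ± 0.08 and did not pass (adjusted p 0.31).

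Both decoy receptors that could be tested fell. TNFRSF10D, a TRAIL receptor with a truncated death domain, had 28.1, 26.7 and 27.5 CPM in siNC and 17.5, 21.2 and 20.0 CPM in siOSBPL3, a log2 fold change of -0.49 ± 0.11 (adjusted p 9.7e-04). TNFRSF11B, osteoprotegerin, had 1.40, 1.48 and 1.11 CPM in siNC and 0.332, 0.191 and 0.202 CPM in siOSBPL3 (-2.45 ± 0.44, adjusted p 2.8e-04). Neither overlapped between groups, and TNFRSF11B had 27 counts over the 3 siOSBPL3 libraries. TNFRSF10C had 2 and 1 counts and TNFRSF6B, the decoy for FASLG, 5 and 6 counts in siNC and siOSBPL3, and they were not tested.

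Of the 11 other receptors 10 were tested: 8 rose and 2 fell (median log2 fold change 1.44). TNFRSF9, or 4-1BB, a costimulatory receptor best known on activated T cells, had 0.943, 1.05 and 1.45 CPM in siNC and 22.5, 18.7 and 18.1 CPM in siOSBPL3. The groups were far apart, with a log2 fold change of 4.11 ± 0.19 (adjusted p 1.6e-09). The pan-leukocyte marker PTPRC averaged 0.0831 CPM in siNC and 0.110 CPM in siOSBPL3, and the T cell marker CD3E 0.0402 and 0.0552 CPM. Of the other leukocyte markers in the table, the myeloid genes CD14 (0.278 and 3.06 CPM) and ITGAM (0.0213 and 2.05 CPM) were called higher, LYZ (1.93 and 0.184 CPM) was called lower and CSF1R (0.850 and 0.748 CPM) did not pass. The part of such cells in the result was not tested. TNFRSF14, or HVEM, had 6.97, 7.44 and 6.07 CPM in siNC and 25.7, 25.5 and 23.2 CPM in siOSBPL3 (1.86 ± 0.12, adjusted p 3.7e-08; 0.77 with the GC and length correction). It shares 2778 bases with TNFRSF14-AS1, which went from 9.48 to 4.09 CPM.

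TNFRSF12A, the receptor of TNFSF12, had 36.2, 35.5 and 36.7 CPM in siNC and 97.3, 99.8 and 101 CPM in siOSBPL3, the tightest groups among the receptors that rose. Its log2 fold change was 1.46 ± 0.08 (adjusted p 4.4e-09) and 0.28 after the GC and length correction (adjusted p 0.0039). TNFRSF1B, the TNF receptor without a death domain, had 50.3, 51.6 and 58.8 CPM in siNC and 120, 165 and 146 CPM in siOSBPL3. All siOSBPL3 libraries were more than 2 times the highest control (1.42 ± 0.12, adjusted p 2.5e-07; 0.81 with the correction). TNFRSF18, or GITR, had 8.25, 8.85 and 9.71 CPM in siNC and 24.9, 19.6 and 22.3 CPM in siOSBPL3 (1.32 ± 0.13, adjusted p 1.3e-06). This call was lost with the correction, at -0.09 and an adjusted p of 0.47; the GC content of TNFRSF18 was 68.1%.

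TNFRSF11A, or RANK, rose from 13 counts in siNC to 230 in siOSBPL3 (3.87 ± 0.47, adjusted p 8.6e-06). TNFRSF8, or CD30, had 3 counts in siNC and 56 in siOSBPL3, a ratio of 15.9 with an exact 95% counting interval of 5.17 to 79.5; its fitted change of 3.85 ± 0.85 had an adjusted p of 0.0012 and was 4.77 without siNC replicate 3 and 3.16 with the correction. TNFRSF19, or TROY, which is expressed in intestinal stem cells, was the weakest of the rises without the correction. It had 29.7, 26.9 and 26.1 CPM in siNC and 29.1, 38.5 and 39.4 CPM in siOSBPL3, where replicate 1 lay within the controls (0.37 ± 0.12, adjusted p 0.015). Its call was lost without siNC replicate 3 (adjusted p 0.057), siOSBPL3 replicate 2 (0.063) or siOSBPL3 replicate 3 (0.056). With the GC and length correction TNFRSF19 was 0.87 (adjusted p 3.5e-05), above TNFRSF12A (0.28), TNFRSF14 (0.77) and TNFRSF1B (0.81). TNFRSF13C, the BAFF receptor, fell from 7.91, 5.21 and 5.73 CPM to 3.40, 3.58 and 3.71 CPM (-0.82 ± 0.21, adjusted p 0.0034). TNFRSF4, or OX40, had 49 counts in siNC and 10 in siOSBPL3, of which none were in replicate 3 (-2.46 ± 0.83, adjusted p 0.016). That call was lost without siNC replicate 1 (adjusted p 0.062), siOSBPL3 replicate 2 (0.078) or replicate 3 (0.052), and the value was -4.93 without siOSBPL3 replicate 1 and -4.00 with the correction. TNFRSF17, or BCMA, had 0 counts in siNC and 4 in siOSBPL3, all in replicate 2, and was not tested. TNFRSF18 and TNFRSF4 are neighbours on chromosome 1 (1203508 to 1206592 and 1211340 to 1214153). Their fitted changes had opposite signs without the correction, and with it both were below 0 (-0.09, not called, and -4.00).

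The initiator caspases divided evenly. CASP10 and CASP8 rose, CASP2 and CASP9 fell, and the groups did not overlap in any of the 4, as they did not in 83.0% of all genes. CASP10, which like CASP8 is recruited to death receptors through FADD, had 1.37, 1.63 and 1.82 CPM in siNC and 20.1, 19.3 and 15.1 CPM in siOSBPL3. It had the largest change of the apoptotic caspases (3.50 ± 0.18, adjusted p 4.6e-09). CASP8 had 34.9, 37.7 and 37.6 CPM in siNC and 52.0, 47.5 and 50.0 CPM in siOSBPL3 (0.44 ± 0.09, adjusted p 4.6e-04). Per kilobase of exon CASP8 was the more abundant in both groups, at 9.33 and 12.7 CPM per kb beside 0.240 and 2.72 CPM per kb for CASP10. The 2 genes are neighbours on chromosome 2, CASP10 at 201183141 to 201229406 and CASP8 at 201233463 to 201287711.

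CASP2, an initiator activated through the PIDD1 complex, had 110, 107 and 111 CPM in siNC and 46.5, 62.3 and 65.8 CPM in siOSBPL3. The controls lay within a few CPM of each other while siOSBPL3 replicate 1 was lowest (-0.91 ± 0.12, adjusted p 1.3e-05; -0.49 with the GC and length correction). CASP9, the initiator of the mitochondrial pathway, had 16.4, 16.7 and 15.9 CPM in siNC and 14.4, 11.5 and 11.1 CPM in siOSBPL3 (-0.40 ± 0.13, adjusted p 0.013). Its call was lost without siNC replicate 2 (adjusted p 0.057).

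CASP6, an executioner caspase that cleaves lamins, rose. It had 8.34, 8.94 and 10.4 CPM in siNC and 24.7, 21.8 and 23.9 CPM in siOSBPL3 (1.35 ± 0.12, adjusted p 7.1e-07). Its gene span overlaps that of MCUB over 24332 bases, introns included, beside 1778 bases of CASP6 exon. MCUB went from 10.3 to 31.7 CPM. How many reads the 2 genes share is not known without the strand setting. These are transcript levels; caspases act after cleavage, which was not measured.

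Both inflammatory caspases found rose. CASP4, the sensor of intracellular lipopolysaccharide, had 41.5, 38.9 and 38.3 CPM in siNC and 58.0, 53.4 and 48.3 CPM in siOSBPL3 (0.43 ± 0.09, adjusted p 0.0011; 0.94 with the correction). CASP1, the inflammasome caspase, had 7 counts in siNC, all in replicate 3, and 159 in siOSBPL3, where the libraries had 1.66, 1.34 and 1.26 CPM (4.19 ± 0.81, adjusted p 4.5e-04). Its fitted value was 8.67 without siNC replicate 3 and 3.60 without siNC replicate 2, so its size rests on those few counts. CASP14, the caspase of the cornifying epidermis, had 0 counts in all 6 libraries; 3 counts over a group would have been 0.031 CPM in siNC and 0.027 CPM in siOSBPL3.

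Ligands and their receptors were then set side by side, each with its own value from the same test. TNF (2.87) and its receptors TNFRSF1A (1.77) and TNFRSF1B (1.42) were higher in siOSBPL3. So were TNFSF12 and TNFRSF12A, TNFSF9 and TNFRSF9, and TNFSF15 and TNFRSF25. With the GC and length correction these pairs were 3.49 and 0.28, 0.76 and 4.67, and 3.37 and 0.42. LTB was higher together with LTBR, the lymphotoxin beta receptor, a family gene with another symbol (1.42 ± 0.10). Lymphotoxin alpha, LTA, did not pass (0.69 ± 0.45, adjusted p 0.17). Other pairs differed. TNFSF4 (-1.02, not called) and TNFRSF4 (-2.46) were both below 0, and TNFSF13B (1.23, not called) and TNFRSF13C (-0.82) had opposite signs. FASLG was lower, and its receptor FAS was higher, from 7.97, 6.20 and 7.82 CPM to 23.4, 34.0 and 41.1 CPM (2.16 ± 0.19, adjusted p 5.1e-07). TNFSF10 was lower, its death receptors TNFRSF10A and TNFRSF10B did not pass, and its decoy TNFRSF10D was lower. A pair is a description of 2 genes measured in the same libraries, and no binding or signalling was measured.

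**Figure D3:**
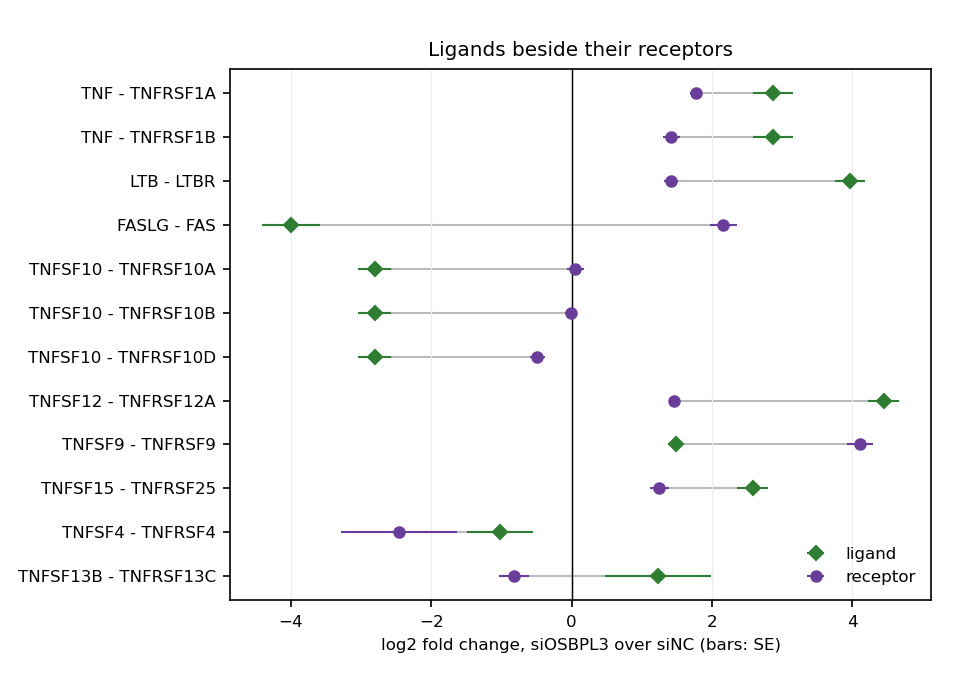
Log2 fold change (siOSBPL3 over siNC, x axis, bars are SE) of each ligand (diamonds) beside that of its receptor (circles), from the counts as deposited. Both values are above 0 for TNF, LTB, TNFSF12, TNFSF9 and TNFSF15 with their receptors, and FASLG (-4.00) and FAS (2.16) lie on opposite sides of 0.

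The rest of the pathway was read from lists of other genes, whose shares called stand beside 80.2% of all genes. Of 11 family genes with other symbols 10 were in the table and 7 tested: 5 rose, 1 fell and 1 did not pass (85.7% called, median 1.42). The rises were LTBR, FAS, EDA, CD70 and EDAR. EDA, the ectodysplasin ligand, rose from 0.633 ± 0.179 to 5.65 ± 0.273 CPM (mean ± SD, n = 3; log2 fold change 3.16 ± 0.28), and EDAR, its receptor, from 2.97 to 5.60 CPM (0.91 ± 0.27). CD70, the ligand of CD27, had 7 and 70 counts (3.03 ± 0.68; 4.14 without siNC replicate 1 and 2.09 with the correction). The gene that fell was NGFR (-1.44 ± 0.55, adjusted p 0.030), and its call was lost without siNC replicate 2 (0.087), siNC replicate 3 (0.12), siOSBPL3 replicate 2 (0.089) or siOSBPL3 replicate 3 (0.070). With the correction NGFR was -2.23 (adjusted p 0.0036). RELT did not pass (0.06 ± 0.12), and with the correction it was called lower (-0.67). NGFR and RELT were named after their values were seen.

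Of 18 receptor adaptors and kinases 10 rose, 7 fell and 1 did not pass (94.4% called, median 0.45). TRAF5, an adaptor of several receptors without a death domain, had 332, 334 and 328 CPM in siNC and 26.5, 26.0 and 30.8 CPM in siOSBPL3. This fall of 3.58 ± 0.10 on the log2 scale (adjusted p 2.2e-11) was the largest in the list, and no libraries were near each other. TRAF6, a ubiquitin ligase of the same family, fell from 44.0 to 12.2 CPM (-1.85 ± 0.10). RIPK1, the kinase that joins TNFRSF1A to NF-kB or to death, rose from 14.1 to 39.1 CPM (1.47 ± 0.11), and TRAF3 from 33.4 to 71.0 CPM (1.09 ± 0.08). TAB2, a binding partner of the kinase MAP3K7, fell (-0.97 ± 0.08; -0.24 with the GC and length correction). FADD, which links death receptors to CASP8, rose (1.14 ± 0.10; 0.36 with the correction). The gene that did not pass was TRADD, the adaptor of TNFRSF1A (0.24 ± 0.11, adjusted p 0.069); with the correction it was called lower, at -0.83. TAB1 was the weakest of the rises (0.31 ± 0.13, adjusted p 0.041), lost without siNC replicate 1 (0.083), siNC replicate 2 (0.11), siNC replicate 3 (0.10) or siOSBPL3 replicate 2 (0.16), and with DESeq2 (0.053) or limma-voom (0.051). With the correction TAB1 was called lower (-0.37, adjusted p 0.010). TRADD was called higher without siOSBPL3 replicate 1 (0.029). FADD, TRADD and TAB1 were named after their values were seen.

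Of 14 inhibitors and ubiquitin enzymes tested, out of 15, 7 rose and 7 fell (all called, median -0.04). TNIP1, a partner of the A20 protein, had 39.6, 37.6 and 41.2 CPM in siNC and 407, 448 and 362 CPM in siOSBPL3. It rose by 3.36 ± 0.10 (adjusted p 6.1e-11), and by 2.70 with the correction. TNFAIP3, which encodes A20 and restrains TNF signalling, rose from 24.2 to 66.8 CPM (1.46 ± 0.09). BIRC3, an inhibitor of apoptosis bound to TRAF2, rose from 39.7 to 115 CPM (1.54 ± 0.08; 2.70 with the correction). SHARPIN, a subunit of the linear ubiquitin ligase, rose (1.62 ± 0.10; 0.34 with the correction), while BIRC6 fell (-1.34 ± 0.09; -0.27 with the correction). CFLAR, the inhibitor of CASP8 at the receptor, rose from 35.2 to 59.6 CPM (0.76 ± 0.09; 1.91 with the correction), and XIAP, an inhibitor of CASP9 and other caspases, fell from 119 to 50.5 CPM (-1.24 ± 0.09; -0.19 with the correction). CFLAR and XIAP were named after their values were seen.

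Of 13 genes of caspase activation and caspase substrates 3 rose, 5 fell and 5 did not pass (61.5% called, median 0.10), and 6 of the 13 had the opposite sign after the GC and length correction. GSDME, a gasdermin cleaved in apoptotic cells, had 5.36, 5.75 and 6.17 CPM in siNC and 0.0277, 0.164 and 0 CPM in siOSBPL3. The 7 counts left in siOSBPL3 stand against 550 in siNC; the fitted log2 fold change of -6.44 ± 0.53 was -8.41 without siOSBPL3 replicate 2 and -5.84 without replicate 3. LMNA, a lamin cleaved in apoptosis, rose (1.45 ± 0.09; 0.77 with the correction). ROCK1, a kinase cleaved in apoptosis, fell (-0.82 ± 0.09; 0.17 with the correction), as did CASP8AP2 (-0.95 ± 0.12; 0.02) and APAF1, the apoptosome scaffold (-0.75 ± 0.11; 0.04). The other changes were rises of DIABLO (0.32 ± 0.08) and PIDD1 (0.46 ± 0.13; -0.62 with the correction) and a fall of DFFB (-0.53 ± 0.12). CYCS (0.32 ± 0.14, adjusted p 0.050), HTRA2, PARP1, DFFA and CRADD did not pass. CYCS, the cytochrome c that activates APAF1, was at the threshold and was called higher under 7 alternatives, at 0.87 with the correction and 0.49 without siOSBPL3 replicate 1. HTRA2 (0.28) and PARP1 (0.17) were called higher without that library, while with the correction HTRA2 was called lower (-0.61) and DFFA higher (0.30). These 8 genes were named after their values were seen.

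Of 18 inflammasome and pyroptosis genes 12 were in the table and 8 tested: 6 rose, 1 fell and 1 did not pass (87.5% called, near the background, median 1.70). IL18, a cytokine matured by CASP1, rose from 9.13, 7.62 and 8.05 CPM to 50.3, 30.9 and 33.9 CPM (2.21 ± 0.18). PYCARD, the adaptor between sensors and CASP1, rose from 1.78 to 13.5 CPM (2.93 ± 0.24; 1.85 with the correction). GSDMD, a pore-forming substrate of CASP1 and CASP4, rose from 14.8 to 50.0 CPM (1.76 ± 0.10; 0.71), and NINJ1, which ruptures the membrane in lytic death, from 19.7 to 62.1 CPM (1.65 ± 0.09; 0.88). NLRP1, a sensor of epithelial cells, had 25 counts in siNC and 599 in siOSBPL3 (4.36 ± 0.52; 5.06 without siNC replicate 2). CARD16, a decoy of CASP1, was the sixth rise (1.19 ± 0.42, adjusted p 0.021), lost without siNC replicate 3 (0.092) or siOSBPL3 replicate 2 (0.075), and GSDMB fell (-0.72 ± 0.18, adjusted p 0.0031). CARD8 did not pass (-0.14 ± 0.11), and with the correction it was called higher (0.62). CARD16 is close in sequence to the start of CASP1, so their reads may be split between them. CARD16, GSDMB and CARD8 were named after their values were seen.

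**Figure D4:**
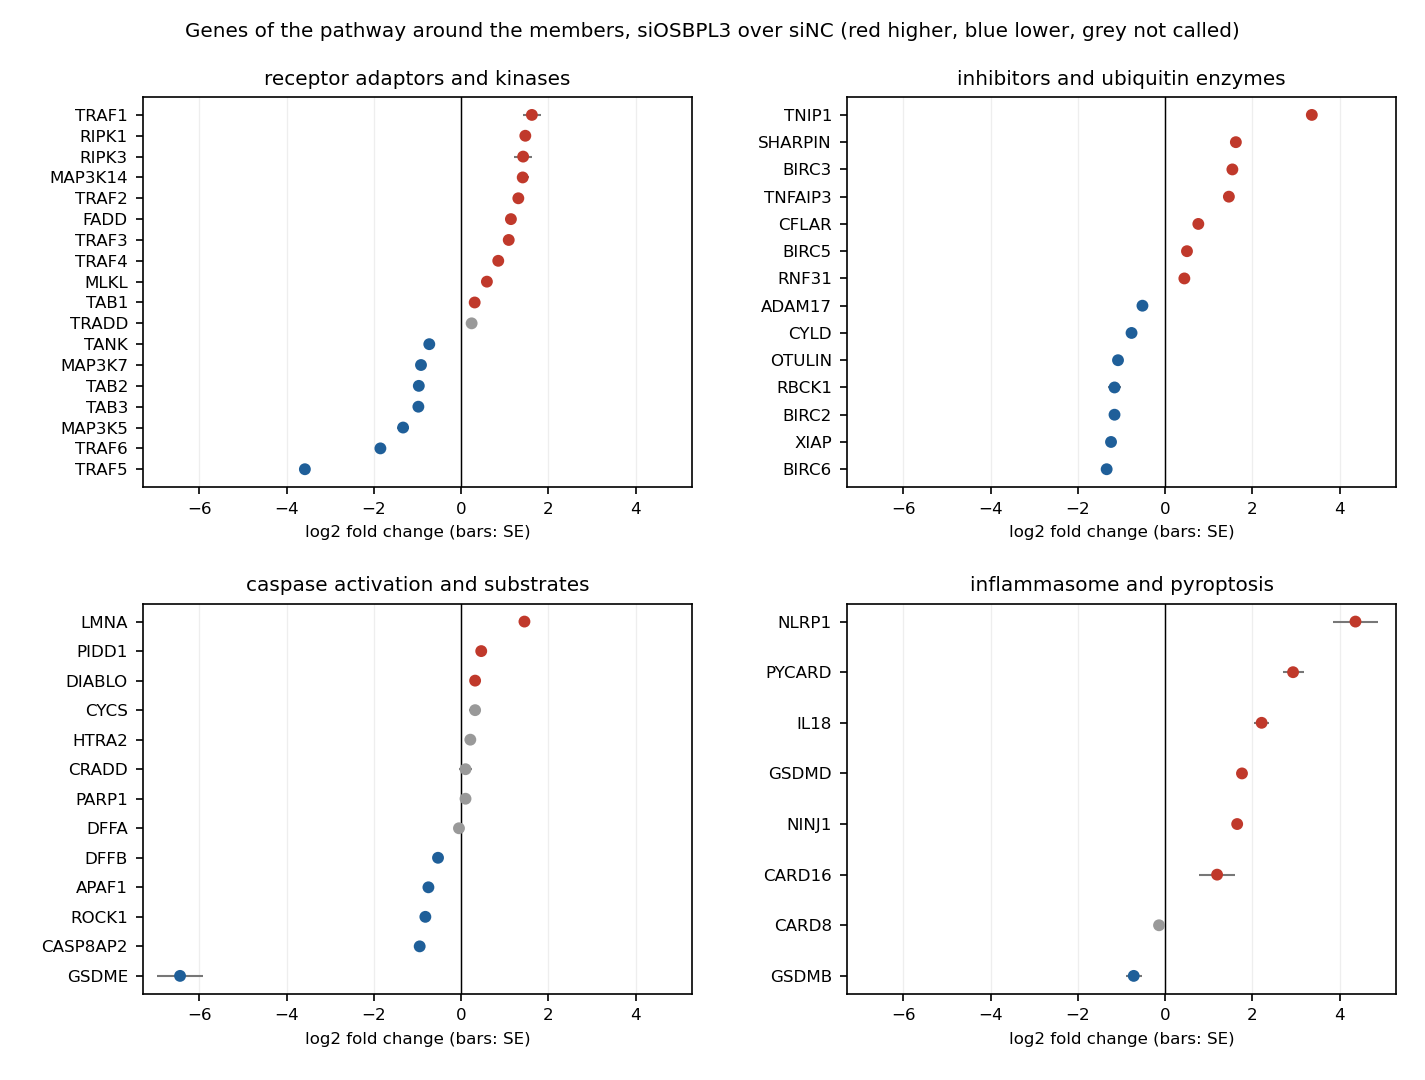
Log2 fold change (siOSBPL3 over siNC) with SE of the tested genes of 4 lists, 1 point per gene, red for called higher, blue for called lower and grey for not called. The inflammasome and pyroptosis genes have a median of 1.70, and the inhibitors and ubiquitin enzymes are spread on both sides of 0 with a median of -0.04.

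The median GC content of members changed at least 2-fold differed with the direction of change. The 18 members at least 2-fold higher had a median transcript GC content of 57.6% and the 4 at least 2-fold lower one of 44.7%. The 2 sets overlapped: TNFRSF4, which was lower, had 69.9%. Among those higher, CASP1 had 41.0%, TNFSF15 42.4% and TNFRSF9 43.9%. GC content and length were fitted to each library's deviations from the gene means over all 6 libraries and taken out as offsets. Those deviations hold the group difference, so a group difference that goes with GC content or length is taken out too. The correction could be done for all 37 tested members and for 91.2% of all tested genes. With it 23 members were called higher and 8 lower, and 78.3% of all genes were called. The members' median log2 fold change was 0.76 beside 0.09 over all genes. Of the 18 members at least 2-fold higher 12 kept that size, and all 4 lower ones did. In all, 18 of the 37 tested members were called at 2-fold or more, beside 39.8% of all genes. Without the correction 22 of the 37 were, beside 48.9% of all genes. The members that rose among low-GC genes, TNFRSF9 (4.67), CASP10 (3.98), TNFSF15 (3.37) and TNFRSF11A (4.30), had larger values with the correction. The part of GC content in the differences was not tested beyond this.

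The siOSBPL3 libraries varied more among themselves than the controls. Over the 25 members above 1 CPM in both groups the median coefficient of variation was 6.87% in siNC and 11.7% in siOSBPL3, and it was larger in siOSBPL3 for 18 of them. Of the siOSBPL3 libraries, replicate 1 was the highest in 13 of these members, and replicates 2 and 3 in 6 each. These measures were not taken over all genes, so they cannot be called particular to the members. Replicate 1 was also the library with the most OSBPL3 left, and the part of that difference in the members' values was not tested.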

How the data were processed

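RNA-seq read counts per gene symbol, raw and whole, were deposited by the authors for 6 libraries. The submitters' processing notes name HISAT2 2.2.1 and HTSeq 0.13.5, with GRCh38 (hg38) as the build; the annotation, the strand setting and the counting options are not given in the sources used here. Overlapping genes and near-identical copies may therefore share or lose reads. The sample titles gave the groups and replicate numbers.

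edgeR 4.0.16 (R 4.3.3) was run on the deposited counts, over all genes kept by filterByExpr (minimum count 10, total 15): TMM scaling, a robust quasi-likelihood fit on group, a two-sided test and Benjamini-Hochberg adjustment, with a threshold of 0.05. Adjusted p-values in the text come from this fit unless the sentence names an alternative. Fold changes compare siOSBPL3 with siNC; their SE was taken as the absolute log2 value over the root of F. CPM use TMM-scaled library totals. The test was tried on simulated counts of 15246 genes, of which few were changed. It called 62% of 1.5-fold and 82% of 2-fold changes in the right direction, and 6 of its 173 calls were false. Data in which 80.2% of genes are called, as here, were not simulated. Intervals and the floor of 3 counts per group cover counting error only. In a chi-square test no 2 replicates matched as one library would (2.98 to 3.59 per degree of freedom in siNC, 19.5 to 52.1 in siOSBPL3), and all 6 libraries entered.

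GC content (longest transcript) and exon length came from GENCODE 29, positions and promoters from RefSeq GRCh38.p14. The correction used mgcv 1.9.3 and gene-wise offsets. Alternatives were other scaling, DESeq2 1.42.0, limma-voom (limma 3.58.1), other filters, a threshold of 0.01, a replicate block and leaving out each library. A member was given in full if its higher group mean was at least 5 CPM and it was called at 2-fold or more, as were the apoptotic caspases named; the others complete their role groups, and up to 5 genes with the smallest adjusted p were named per list. The counts cover all members, and 2 tested members are not reported here individually. Members and lists were chosen with earlier results of these data known.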

Additional observations from a re-analysis of the deposited data

How the results depend on the processing

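Of 513 results for 35 single members under the alternatives, 490 kept their direction and their side of the threshold, 10 lost the call with the same sign, 6 gained one and 7 changed sign, of which TNFRSF18 also lost its call; 26 of the 35 members were the same throughout. The number of members that fell was 4, not 8, under the filter at 5 CPM (mean over libraries), where 25 members were tested. Leaving out 1 library at a time gave 28 to 31 members called. With GC content and length corrected for, the sign changed for TNFRSF18 (-0.09), TNFRSF10A (-0.10), TNFRSF10B (0.01) and TNFRSF21 (-0.01), and outside the members for RELT (-0.67), TRADD (-0.83), TAB1 (-0.37), CYLD (0.23), RNF31 (-0.27), ADAM17 (0.21), APAF1 (0.04), HTRA2 (-0.61), PIDD1 (-0.62), CASP8AP2 (0.02), DFFA (0.30), ROCK1 (0.17) and CARD8 (0.62), where all of these non-members were called in the new direction except APAF1, CASP8AP2 and ROCK1; the cause was not tested. TNFRSF10B was 0.03 with library totals in place of TMM. Without 1 library at a time TNFRSF10A ran from -0.07 to 0.18, TNFRSF10B from -0.03 to 0.02, RELT from -0.05 to 0.12 and DFFA from -0.10 to 0.01, none of them called. The labels do not say whether same-numbered libraries were paired. Deviations of same-numbered libraries correlated at -0.046, 0.009 and -0.054 over 10638 genes, so no shared deviation was seen. With the larger spread among the siOSBPL3 libraries, these correlations cannot exclude pairing. With the replicate block 31 members were called, 22 higher and 9 lower, the added one being TNFSF4 (-1.21, adjusted p 0.031), and 12277 of all genes. Depth limits members below about 1 CPM, whose values rest on few counts.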
